A study of Mus musculus with 48 samples.

Results

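The genes described here are 9 components of the inflammasome and of lytic cell death, taken from the 55416 genes counted in mouse liver. They are Nlrp3, Pycard, Casp1, Casp4, Gsdmd, Il1b, Il18, Ripk3 and Mlkl, each found by the Ensembl identifier of its symbol, and the rule uses no measured value, although the genes were picked with earlier results of these data known. The livers came from mice labelled C57Bl/6J, with either a dominant-negative knock-in of LXRα (W441R, DN) or an LXRα knockout (KO), and each study held wild-type (WT), heterozygous (HET) and homozygous (HOM) animals, 8 per group and 48 in all. LXRα, encoded by Nr1h3, is a nuclear receptor that senses oxysterols and switches on genes of cholesterol export and fatty acid synthesis. All groups, wild-type mice included, had eaten a western diet with 0.2% cholesterol for 8 weeks, from about 8 to 16 weeks of age, and there was no group on another diet. The DN mice were males from crosses of heterozygotes. The knockout line, present in the whole body, came from a mixed Sv129/C57Bl/6 stock and had been backcrossed to C57BL/6. The sex of the KO mice was not named outright, but the paper describes their study as a repeat of the one in male knock-in mice. Both alleles act in every cell of the animal, and each model was a separate study with its own wild-type mice, so that allele and study cannot be told apart. Whole liver was sequenced, and fewer cells of a type and less RNA per cell cannot be told apart in such samples.

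An inflammasome is a protein platform that forms in the cytosol when a sensor such as NLRP3 meets signs of damage or infection. The adaptor ASC, encoded by Pycard, links the sensor to procaspase-1, and active caspase-1 cuts the precursors of interleukin-1β and interleukin-18 and the pore-forming protein gasdermin D. Caspase-4, the mouse counterpart of the human lipopolysaccharide-sensing caspases, cuts gasdermin D without this platform. Necroptosis is a second lytic route, in which the kinase RIPK3 phosphorylates MLKL, which then ruptures the plasma membrane. In the liver many of these genes are used by Kupffer cells and recruited macrophages, whereas Il18 and Gsdmd are also known from parenchymal and epithelial cells. Most of these proteins are controlled by cleavage or phosphorylation, which RNA levels do not show.

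The knockout labels were checked on Nr1h3. Levels are given as reads per 1000000 reads on genes, with each library size multiplied by its TMM scaling factor (CPM). Among the 46 livers used, these factors were 1.2111 to 1.3366 in DN:HOM and 0.9217 to 0.9745 in DN:WT livers. Without them, DN:HOM levels would stand higher against DN:WT than printed. Nr1h3 had 25.3 to 31.1 CPM in KO:HOM, 48.3 to 65.4 CPM in KO:HET and 81.5 to 108 CPM in KO:WT livers. In the knock-in, where the transcript is still made, its level (68.5 to 77.4 CPM in DN:HOM and 82.1 to 96.9 CPM in DN:WT livers) is no check of the allele. Values are given for 46 livers. The study's source data for a panel of bile acid genes were matched to livers by ratios of Nr0b2, Abcb11 and Cyp8b1 reads. They held 7 DN:WT, 8 DN:HET and 7 DN:HOM livers, and DN:WT animal 10 and DN:HOM animal 12 matched none of them. The paper's legend for its RNA-seq heatmap gives n = 8, so it is not known whether the authors left these animals out elsewhere. Those libraries stood apart from their labels. The library labelled DN:WT animal 10 had 42.8 CPM of Casp4 and a summed level of 1232 CPM over 7 macrophage markers, against 1.11 to 2.54 CPM and 92.8 to 159 CPM in the other DN:WT livers. The library labelled DN:HOM animal 12 had 1.75 CPM of Casp4 and 97.8 CPM over the macrophage markers, against 14.2 to 42.1 CPM and 755 to 1235 CPM in the other DN:HOM livers. Results over all 48 livers, with both kept in their labelled groups, are given beside the main results they touch. Reads on genes ranged from 5332897 to 16961379 per liver. The hepatocyte markers Alb, Apoa1, Ttr, Serpina1c, Cps1 and Hnf4a were present in every group, with a summed level between 29614 CPM in the lowest DN:HOM liver and 92353 CPM in the highest KO:WT liver.

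All 9 members passed the filter on low counts and were tested. They were not equally abundant. On a scale of CPM per kilobase of the main annotated transcript, Gsdmd was the highest member in KO:WT livers with a median of 18.4, followed by Il18 with 9.69. The range of Gsdmd did not overlap with that of Il18, nor that of Il18 with the next gene, Mlkl, at 1.35. Mlkl, Casp1 (1.33), Casp4 (1.10), Il1b (0.895) and Ripk3 (0.464) followed, each overlapping with the next. Pycard (0.18) and Nlrp3 (0.175) were the lowest and overlapped with each other, and Pycard lay below the range of Ripk3 whereas Nlrp3 overlapped with it. The place of Pycard is uncertain, since its annotated coding transcripts run up to 4181 bases, others are far shorter, and 4122 bases were used. In DN:HOM livers the order changed at one place above all: Casp4 stood second, with 18.8 CPM per kilobase, behind Gsdmd with 28.2, with which it overlapped, and ahead of Il18 with 6.08, with which it did not. Nlrp3 had the fewest reads per liver (median 19), and the lowest single value was 1 read of Il1b, so small differences of these genes were not detectable at this depth.

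In homozygous knock-in against wild-type livers, 7 of the 9 members passed the threshold of an adjusted p under 0.05, 6 of them higher and 1 lower. Of all 15711 genes tested in this comparison 59.1% passed, and 29.1% passed and were higher. With library size alone 7 members passed here, all higher, and the split over all genes was 9283 higher and 1738 lower, against 4579 and 4713. In homozygous knockout against wild-type livers 7 members passed, all of them higher, where 19.4% of all genes passed and 11.5% passed and were higher (1811 higher and 1237 lower, and 2622 and 437 with library size alone). The pan-leukocyte gene Ptprc rose beside them, by 1.65 in the knock-in (adjusted p = 4.0e-04) and by 2.13 in the knockout (adjusted p = 7.0e-05) on the log2 scale, and its part in the member values was not tested. The median log2 fold change over the 9 members was 1.12 in the knock-in and 1.56 in the knockout, against -0.01 and -0.02 over all genes tested. Pycard, Casp1, Casp4, Il1b and Mlkl were higher in both. Nlrp3 and Ripk3 passed only in the knockout and Gsdmd and Il18 only in the knock-in, and the difference between the 2 models was tested on its own. Over all 48 livers 6 members passed in the knock-in, where 48% of all genes did, and 7 in the knockout, where 12.9% did. Among the 6 were Casp1 (log2 fold change 0.75, adjusted p = 0.0471), Gsdmd (0.46, adjusted p = 0.0136), Il18 (-0.33, adjusted p = 0.0448) and Mlkl (0.69, adjusted p = 0.00949). Groups that did not overlap at all were seen for 4 members in the knock-in (Pycard, Casp4, Gsdmd and Il1b), where 17.8% of all genes lay wholly higher in DN:HOM. In the knockout they were seen for 3 members (Pycard, Casp1 and Casp4), where 2.18% of genes did. With animals 10 and 12 kept, no member and 8 genes lay wholly higher in DN:HOM.

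**Figure D1:**
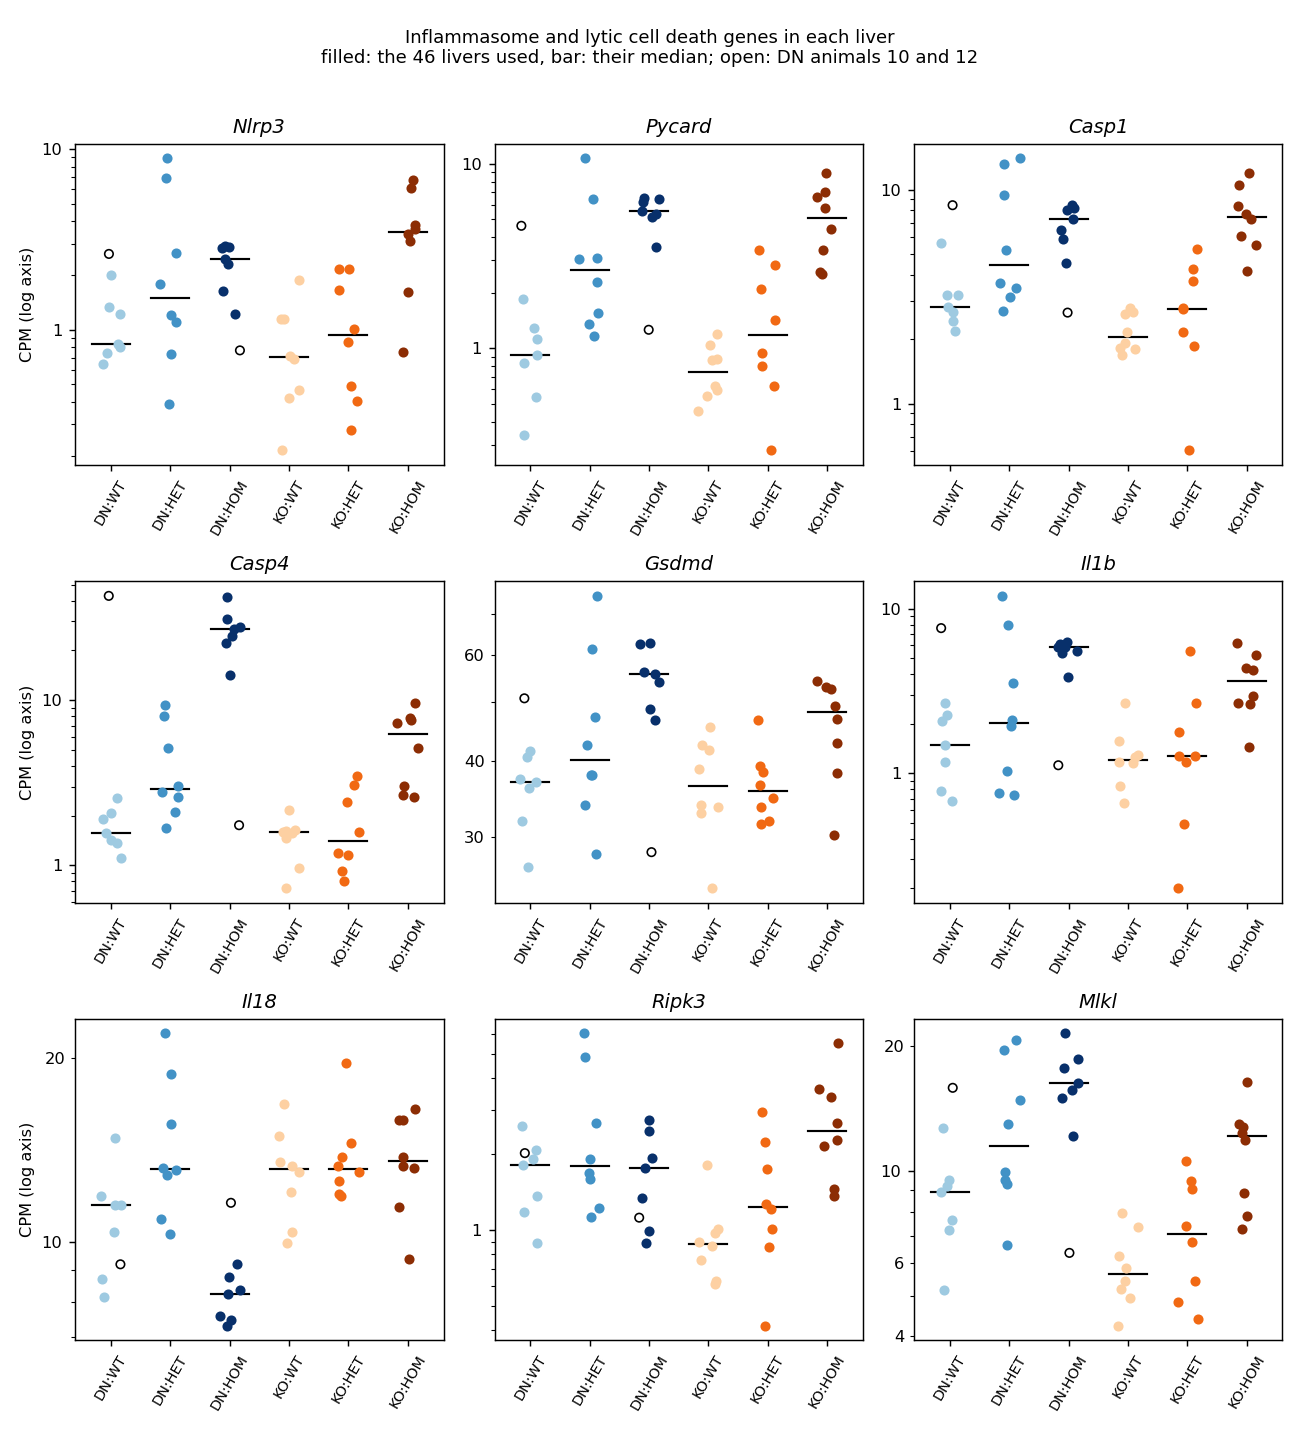
Each panel plots 1 member, with its CPM on a log axis for every liver of the 6 groups. Filled points are the 46 livers used, bars are their medians, and open circles are DN animals 10 and 12. Casp4 lies between 14.2 and 42.1 CPM in the 7 DN:HOM livers and at or below 9.59 CPM in all other filled points, and the DN:HOM livers of Il18, at 7.32 to 9.22 CPM, lie at or below the lower part of the DN:WT points.

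The sensor Nlrp3 (ENSMUSG00000032691, chromosome 11 of GRCm39 from 59432394 to 59457782) had, as lowest, median and highest value, 0.215, 0.702 and 1.88 CPM in KO:WT and 0.756, 3.49 and 6.74 CPM in KO:HOM livers. Most KO:HOM livers lay above the wild-type range, although the groups overlapped. Its rise on the log2 scale was 2.12 ± 0.49 (standard error; adjusted p = 0.00133, quasi-likelihood test of edgeR, adjusted after Benjamini and Hochberg over all genes tested, as everywhere unless another test is named). In the knock-in, DN:WT livers had 0.643, 0.836 and 2 CPM and DN:HOM livers 1.23, 2.48 and 2.92 CPM. The log2 difference of 1.12 (standard error 0.50) did not pass (adjusted p = 0.0524). It passed with DESeq2, with upper-quartile scaling, with library size alone and with a mean CPM of at least 1, within a range of adjusted p from 0.00896 to 0.204 over the 9 alternatives, and it passed without DN:WT animal 13 (adjusted p = 0.0325) or without DN:HOM animal 33 (adjusted p = 0.041).

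The adaptor Pycard (ENSMUSG00000030793, chromosome 7 from 127588558 to 127593039) rose in both models. DN:WT livers had 0.337, 0.919 and 1.85 CPM and DN:HOM livers 3.55, 5.56 and 6.50 CPM, with no overlap. The rise was 2.5 on the log2 scale (standard error 0.42, adjusted p = 2.5e-06), and 1.77 over all 48 livers. In the knockout, the range moved from 0.46, 0.744 and 1.19 CPM in KO:WT to 2.53, 5.08 and 8.88 CPM in KO:HOM, again without overlap (log2 fold change 2.73, standard error 0.41, adjusted p = 9.2e-06). It was the member with the highest log2 fold change in the knockout.

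The caspase genes lie side by side on chromosome 9 of GRCm39 and on the same strand, Casp1 (ENSMUSG00000025888) from 5298508 to 5307290 and Casp4 (ENSMUSG00000033538) from 5308828 to 5336783, with 1537 bases between their gene models. Casp1 had 2.18, 2.83 and 5.63 CPM in DN:WT and 4.54, 7.30 and 8.45 CPM in DN:HOM livers. A single wild-type liver, animal 13, reached the DN:HOM range. The log2 fold change came to 1.16 ± 0.31 (standard error, adjusted p = 0.0013). In the knockout Casp1 moved from 1.68, 2.04 and 2.79 CPM to 4.16, 7.47 and 11.9 CPM, without overlap (1.82, standard error 0.30, adjusted p = 2.9e-05). Casp4 had 1.11, 1.57 and 2.54 CPM in DN:WT and 14.2, 27.1 and 42.1 CPM in DN:HOM livers, or a mean of 1.71 ± 0.489 (SD, n = 7) against 27 ± 8.57 CPM (SD, n = 7). At 3.99 on the log2 scale (standard error 0.36, adjusted p = 7.4e-13) its rise was the highest among the members in either model. Over all 48 livers it was 1.77 (adjusted p = 0.00753), with animals 10 and 12 at 42.8 and 1.75 CPM. In the knockout Casp4 had 0.73, 1.59 and 2.15 CPM in KO:WT and 2.59, 6.24 and 9.59 CPM in KO:HOM livers, and all KO:HOM livers lay above all KO:WT livers (1.98, standard error 0.33, adjusted p = 3.7e-05).

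For the neighbouring caspase genes, the log2 fold changes in the knock-in, among the livers used, were 1.16 for Casp1 and 3.99 for Casp4. In the knockout they were close, at 1.82 and 1.98. Casp1 and Casp4 were not tested against each other, and a part of their promoters in these values was not tested. As a description, the 250 bases before the start of the main transcripts were read from GRCm39 and searched with short motifs. Sequences run 5′ to 3′ on the strand of the gene, and capitals mark a match to GGGNNNTTCC (κB-like, the class of site that NF-κB binds), GAAANNGAAA (ISRE-like, interferon response), TTCNNNGAA (GAS-like, STAT factors) or TATAAA, each on either strand. Casp4 is shown for its change, Casp1 as its neighbour and Il1b as the cytokine:
Casp4, chr9:5308593-5308842, plus strand: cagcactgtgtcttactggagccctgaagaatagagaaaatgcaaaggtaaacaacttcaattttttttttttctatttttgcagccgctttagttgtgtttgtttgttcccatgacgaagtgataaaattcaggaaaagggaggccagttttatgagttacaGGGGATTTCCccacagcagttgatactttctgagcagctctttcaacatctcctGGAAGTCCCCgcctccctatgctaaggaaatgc
Casp1, chr9:5298258-5298507, plus strand: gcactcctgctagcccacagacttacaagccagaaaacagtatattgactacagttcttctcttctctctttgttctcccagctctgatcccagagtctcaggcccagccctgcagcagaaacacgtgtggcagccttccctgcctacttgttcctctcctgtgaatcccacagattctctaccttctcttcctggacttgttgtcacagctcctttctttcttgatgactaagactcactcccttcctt
Il1b, chr2:129213060-129213309, minus strand: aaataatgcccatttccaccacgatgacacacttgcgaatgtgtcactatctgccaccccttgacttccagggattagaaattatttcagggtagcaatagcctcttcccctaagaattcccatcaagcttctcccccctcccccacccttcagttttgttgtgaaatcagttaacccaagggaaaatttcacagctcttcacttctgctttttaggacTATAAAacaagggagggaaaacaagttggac
Casp4 held 2 matches of the κB-like motif, starting 87 and 33 bases before the start site, and Casp1 held no match to any of the motifs. The last bases of the Casp4 stretch lie within its gene model, because another transcript starts there. Il1b held TATAAA 31 bases before its start. Of 21770 promoters of protein-coding genes of the same length, 4.7% held the κB-like motif, 3.32% the ISRE-like motif, 7.7% the GAS-like motif and 11.9% TATAAA. Among the members the κB-like motif was also found in Il18, the ISRE-like motif in Mlkl only, and the GAS-like motif in none. The LXR element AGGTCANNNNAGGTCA (direct repeat, either strand) was in none of the 21770 promoters. A match of letters is a description of the window and not a binding site.

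Gsdmd (ENSMUSG00000022575, chromosome 15 from 75733974 to 75739257), the pore protein on which both caspases act, had 26.7, 37.0 and 41.5 CPM in DN:WT and 46.7, 55.7 and 62.6 CPM in DN:HOM livers. The groups did not overlap, yet the change was small (log2 fold change 0.63, standard error 0.15, adjusted p = 3.2e-04). In the knockout it had 24.7, 36.3 and 45.6 CPM in KO:WT and 30.2, 48.1 and 54.2 CPM in KO:HOM livers, with a log2 difference of 0.32 (standard error 0.14) that did not pass (adjusted p = 0.104). It passed with library size alone (adjusted p = 0.0461, range 0.0461 to 0.17 over the alternatives) and without KO:HOM animal 22 (adjusted p = 0.0382).

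The cytokine genes did not move together. Il1b (ENSMUSG00000027398, chromosome 2 from 129206490 to 129213059) had 0.681, 1.48 and 2.69 CPM in DN:WT and 3.85, 5.83 and 6.32 CPM in DN:HOM livers. The groups did not overlap (log2 fold change 1.81, standard error 0.47, adjusted p = 0.00102). With animals 10 and 12 kept, at 7.64 and 1.12 CPM, the log2 fold change was 1.07 and no longer passed (adjusted p = 0.0631, range 1.2e-04 to 0.0631 over the alternatives). In the knockout Il1b had 0.664, 1.21 and 2.69 CPM in KO:WT and 1.45, 3.62 and 6.20 CPM in KO:HOM livers, with some overlap (1.49, standard error 0.46, adjusted p = 0.0161). Il18 (ENSMUSG00000039217, chromosome 9 from 50466081 to 50493633) was the only member that fell. It had 8.14, 11.5 and 14.8 CPM in DN:WT and 7.32, 8.24 and 9.22 CPM in DN:HOM livers, with 3 of the 7 DN:HOM livers below the lowest wild-type liver and the others in the lower part of its range (log2 fold change -0.42, standard error 0.14, adjusted p = 0.0114). This fall depends on the scaling. With library size alone, which shifted the median of all genes by 0.42 in this comparison, the log2 fold change of Il18 was 0.00 (adjusted p = 0.979). KO:WT livers had 9.97, 13.1 and 16.8 CPM and KO:HOM livers 9.39, 13.6 and 16.5 CPM of Il18, a log2 difference of 0.07 (standard error 0.13, adjusted p = 0.768).

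Of the necroptosis genes, Mlkl passed in both models and Ripk3 in the knockout. Mlkl (ENSMUSG00000012519, chromosome 8 from 112036296 to 112065168), the membrane-rupturing effector, had 5.19, 8.91 and 12.7 CPM in DN:WT and 12.2, 16.3 and 21.5 CPM in DN:HOM livers, where the highest wild-type liver lay within the DN:HOM range (log2 fold change 0.97, standard error 0.21, adjusted p = 1.0e-04). In the knockout it moved from 4.25, 5.64 and 7.94 CPM to 7.28, 12.1 and 16.4 CPM (0.94, standard error 0.20, adjusted p = 6.4e-04). Ripk3 (ENSMUSG00000022221, chromosome 14 from 56022452 to 56026324), its kinase, had 0.886, 1.82 and 2.60 CPM in DN:WT and 0.888, 1.77 and 2.73 CPM in DN:HOM livers. These ranges were nearly the same, and the log2 difference was 0.06 (95% interval -0.65 to 0.76, adjusted p = 0.905). In the knockout Ripk3 moved from 0.613, 0.878 and 1.82 CPM to 1.36, 2.47 and 5.51 CPM (1.56, standard error 0.35, adjusted p = 0.00117), with a single KO:WT liver, animal 5, inside the KO:HOM range.

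**Figure D2:**
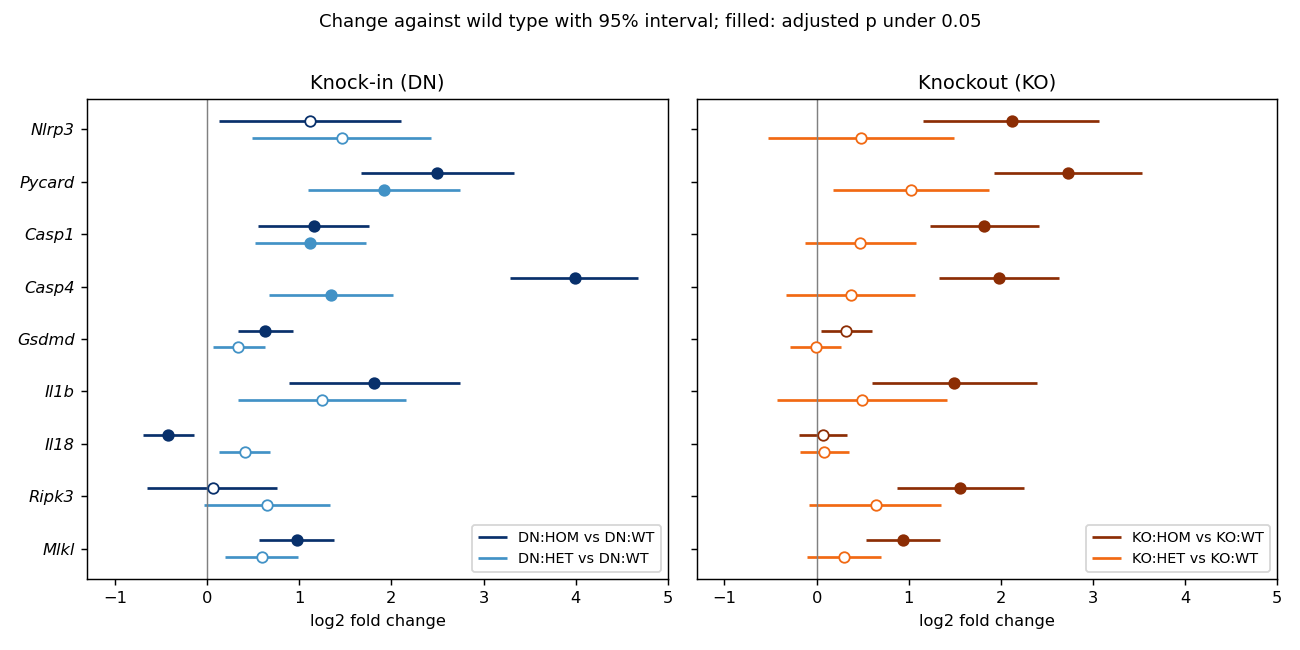
The log2 fold change of each member against wild type is plotted with its 95% interval, for the knock-in on the left and the knockout on the right, with the homozygous comparison above the heterozygous one for each gene. Filled points passed an adjusted p under 0.05. Casp4 at 3.99 is the point farthest to the right, Ripk3 is at 0.06 in the knock-in and at 1.56 in the knockout, and no heterozygous knockout point is filled.

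The homozygous effects of the models were compared directly, as the knock-in effect minus the knockout effect. Of all genes 34.7% passed, and 3 of the 9 members did. Casp4 rose by 2.01 more on the log2 scale in the knock-in (standard error 0.48, adjusted p = 9.3e-04). For Ripk3 the effect was lower in the knock-in, with a difference of -1.51 (standard error 0.50, adjusted p = 0.0174). Il18 had a difference of -0.49 (standard error 0.20, adjusted p = 0.0489), which sat at the threshold and was lost in 18 of 30 fits that left out 1 liver each and in 5 of 8 alternatives. Over all 48 livers Casp4 gave -0.21 (adjusted p = 0.902) in this test and Ripk3 -1.62 (adjusted p = 0.0272), so the Casp4 difference rests on leaving out animals 10 and 12. The Ripk3 difference did not pass with library size alone (-1.19, adjusted p = 0.0612). The remaining 6 members did not pass (Gsdmd did with library size alone, 0.62, adjusted p = 0.0269, range 0.0269 to 0.741 over the alternatives), which does not show equal responses: the 95% interval of the difference was -2.37 to 0.37 for Nlrp3, -1.37 to 0.92 for Pycard, -1.50 to 0.17 for Casp1, -0.09 to 0.71 for Gsdmd, -0.96 to 1.61 for Il1b and -0.54 to 0.60 for Mlkl. Between the wild-type groups of the studies no member passed, where 12% of genes did. Ripk3 and Mlkl had an unadjusted p under 0.05 there, both higher in DN:WT (log2 differences 0.82 and 0.54), and DESeq2 called 0 members. With animal 10 kept in DN:WT, Casp4 (2.25, adjusted p = 0.00971) and Mlkl (0.69, adjusted p = 0.0365) passed in this comparison.

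In heterozygous knock-in livers 3 members were higher than in wild type, where 2.3% of all genes passed and 2.23% passed and were higher. They were Pycard (log2 fold change 1.92, standard error 0.42, adjusted p = 0.0133), Casp4 (1.34, standard error 0.34, adjusted p = 0.0259) and Casp1 (1.12, standard error 0.30, adjusted p = 0.0353). The spread within this group was wide, and it came from few animals. DN:HET livers had 1.69, 2.89 and 9.32 CPM of Casp4, 2.72, 4.43 and 14 CPM of Casp1 and 1.16, 2.67 and 10.7 CPM of Pycard. Animals 4 and 22 held the highest and second highest value of the group for all 9 members. Relative to the DN:WT median, animal 22 had 10.7 times the level of Nlrp3 and 11.7 times that of Pycard, and animal 4 had 8.31 and 7.01 times. Animal 29 was among the 3 highest for 7 members. Without animal 22, or without animal 4, 0 members and 21 or 29 genes passed, and without both 0 members and 2 genes passed. Leaving out DN:WT animal 2, 7, 21 or 28 left 1 member, Pycard, and 103 to 181 genes, and leaving out DN:HET animal 8 gave 5 members and 629 genes. In all, the Casp1 call was lost in 9 of 15 such fits, that of Casp4 in 6 and that of Pycard in 2. All 48 livers gave 0 members and 39 genes.

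**Figure D3:**
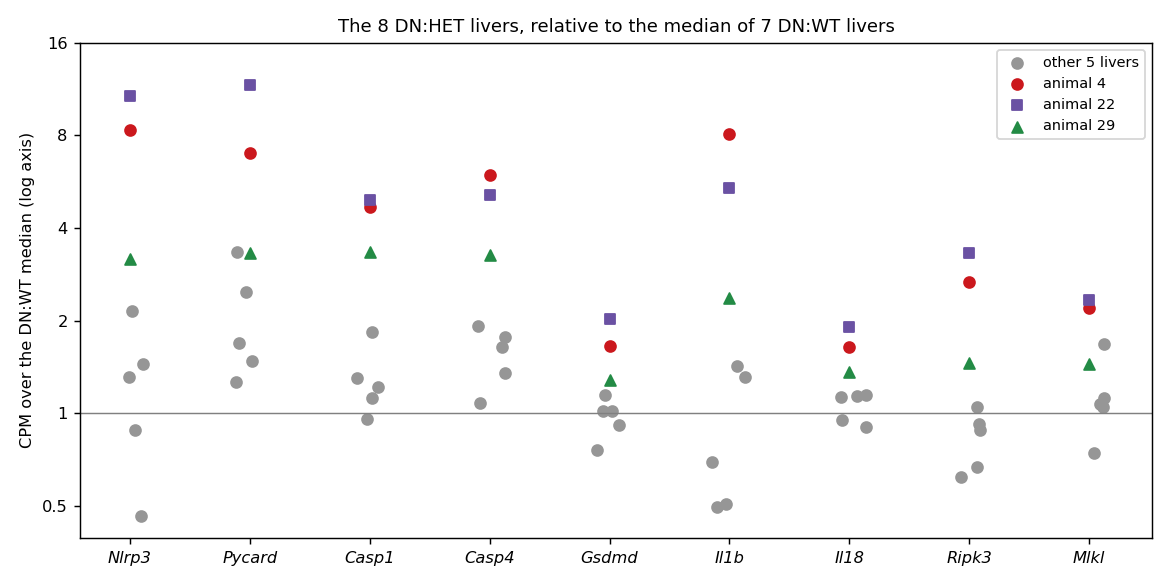
The CPM of each member in the 8 DN:HET livers is plotted on a log axis relative to the median of the 7 DN:WT livers, with animals 4, 22 and 29 marked and the other 5 livers in grey. Animals 4 and 22 lie above the remaining livers for every member, from 1.64 times the wild-type median for Il18 to 11.7 times for Pycard.

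The leukocyte markers moved with these animals. Ptprc, which encodes the pan-leukocyte antigen CD45, had 74.5 CPM in animal 4 and 101 CPM in animal 22, 40.3 CPM in animal 29 and 9.58 to 24.6 CPM in the other DN:HET livers. The summed Kupffer cell markers were 553 and 599 CPM in animals 4 and 22, against 131 to 256 CPM in DN:WT livers, whereas the same sum was 1.56 to 3.50 CPM in DN:HOM livers. The part of cell composition in the member values of these livers was not tested.

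Heterozygous knockout livers showed no member past the threshold with edgeR, where 0.0191% of all genes passed. The only member with an unadjusted p under 0.05 was Pycard (log2 difference 1.02, adjusted p = 0.709), and DESeq2 called 0 members as well. KO:HET livers ranged for Casp4 over 0.806, 1.40 and 3.49 CPM and for Il1b over 0.201, 1.28 and 5.58 CPM, and overlapped with KO:WT throughout.

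Homozygous and heterozygous livers were compared to see whether a second altered allele changed the genes further. Between DN:HOM and DN:HET 53.9% of all genes passed, and of the members Casp4 was higher (2.64, standard error 0.31, adjusted p = 1.1e-09) and Il18 lower (-0.83, standard error 0.14, adjusted p = 2.8e-06). Every DN:HOM liver lay above every DN:HET liver for Casp4 and below every one for Il18, where 11.6% of all genes lay wholly above and 10.5% wholly below. For Il18 this separation rests on the scaling. Before scaling, DN:HOM animal 31 had 186 Il18 reads among 16284039 reads on genes. That is a larger share than the 160 among 16224655 in DN:HET animal 8. The fall of Il18 itself passed in all 9 alternatives, with log2 fold changes from -0.83 to -0.48. With animal 12 kept in DN:HOM no member was separate from DN:HET, where 0.789% of all genes lay wholly above and 0.388% wholly below. Without DN:HET animals 4 and 22, 6 members passed, with Pycard, Gsdmd, Il1b and Mlkl also higher, and without either one alone 5 passed. Of all genes 56.3% passed without both and 54.4 to 54.9% without either. Between KO:HOM and KO:HET 10.6% of genes passed, 7.24% passed and were higher in KO:HOM, and 5 members were higher. They were Pycard (1.70, adjusted p = 0.00344), Nlrp3 (1.63, adjusted p = 0.0195), Casp4 (1.61, adjusted p = 0.00147), Casp1 (1.35, adjusted p = 0.00259) and Mlkl (0.64, adjusted p = 0.0323). The Mlkl call was lost in 10 of 16 fits that left out 1 liver each and in 3 of 9 alternatives (adjusted p up to 0.0949 and 0.0931). Of these Nlrp3, Pycard and Casp1 also passed over all 48 livers. Leaving out 1 liver at a time gave 3 to 6 members, the fewest without KO:HOM animal 8.

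Markers of other cell types changed beside the members in the homozygous comparisons. Of the hepatocyte markers 5 of 6 were lower in both, with a median log2 fold change over the list of -1.04 in DN:HOM and -0.39 in KO:HOM. Their summed level was 58531 to 74811 CPM in DN:WT, 29614 to 37890 in DN:HOM, 67634 to 92353 in KO:WT and 45794 to 69664 in KO:HOM. The macrophage list had 6 of 7 markers higher in DN:HOM and 6 of 7 in KO:HOM, and its summed level ranged over 92.8 to 159 CPM in DN:WT, 755 to 1235 in DN:HOM, 66.0 to 191 in KO:WT and 228 to 947 in KO:HOM. The median log2 fold change over its markers was 1.35 in DN:HOM and 1.64 in KO:HOM, and in DN:HOM Lyz2 (4.28) and Itgam (3.82) rose most. All 5 Kupffer cell markers were lower in DN:HOM and 3 of 5 in KO:HOM (sums of 131 to 256, 1.56 to 3.50, 74.0 to 300 and 21.7 to 66.2 CPM in the same order). Of the neutrophil markers 5 of the 5 tested were higher in DN:HOM and 3 in KO:HOM, with sums of 3.48 to 6.54, 30.2 to 81.1, 1.65 to 6.39 and 4.28 to 28.9 CPM. Ly6g, the sixth marker on that list, had no read in any wild-type or heterozygous liver among the 46. All 4 cholangiocyte markers were higher in DN:HOM (6.54 to 10.2 against 47.0 to 62.7 CPM) and none in KO:HOM (4.06 to 12 against 5.37 to 12.2 CPM), and all 4 differed between the models. The T cell list had 4 of 6 markers higher in DN:HOM and 6 of 6 in KO:HOM, the dendritic cell list 1 of 3 tested and 3 of 3, and of 4 B cell markers 1 was lower in DN:HOM and none passed in KO:HOM. With animals 10 and 12 kept, the DN:WT and DN:HOM sums overlapped for each of these lists (3.19 to 256 and 1.56 to 151 CPM for the Kupffer cell markers, 6.54 to 61.5 and 9.51 to 62.7 CPM for the cholangiocyte markers), and all markers of those 2 lists still passed in DN:HOM. How much of the change in each member goes with these shifts was not tested.

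As a description added after the values were seen, each member was divided by Ptprc in the same liver. Casp4 per Ptprc ranged, as lowest, median and highest, over 0.114, 0.139 and 0.15 in DN:WT and 0.448, 0.654 and 0.953 in DN:HOM livers. In the knockout it ranged over 0.109, 0.147 and 0.389 in KO:WT and 0.08, 0.119 and 0.224 in KO:HOM livers. Every DN:HOM liver thus lay above every other liver of the 46 on this scale, and 3.04% of all genes lay wholly higher in DN:HOM than in DN:WT. With animals 10 and 12 kept, DN:HOM and DN:WT overlapped. DN:WT animal 10 had 42.8 CPM of Casp4 and 48.7 CPM of Ptprc, and DN:HOM animal 12 had 1.75 and 9.02 CPM. Casp1 per Ptprc had medians of 0.222 in DN:WT, 0.181 in DN:HOM, 0.241 in KO:WT and 0.19 in KO:HOM livers, with overlapping ranges. Nlrp3 and Il1b also overlapped between homozygous and wild-type livers in both models. Pycard per Ptprc had medians of 0.0688 in DN:WT and 0.142 in DN:HOM livers, and 0.0855 and 0.118 in the knockout. Its ranges overlapped too, with DN:WT up to 0.127 and DN:HOM from 0.112, and KO:WT up to 0.167 and KO:HOM from 0.09. Il18, Gsdmd, Ripk3 and Mlkl had lower medians in homozygous than in wild-type livers on this scale, in both models, as any gene that rose less than Ptprc must. Of all genes tested 89.9% had a lower median in DN:HOM and 97.5% in KO:HOM, so nothing is read from these falls. For Il18 the medians were 0.857 in DN:WT and 0.212 in DN:HOM, and 1.15 in KO:WT and 0.376 in KO:HOM livers, and for Gsdmd 3.05, 1.42, 3.67 and 1.25 in the same order. For Ripk3 they were 0.142, 0.0438, 0.107 and 0.0648, and for Mlkl 0.743, 0.428, 0.6 and 0.298.

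**Figure D4:**
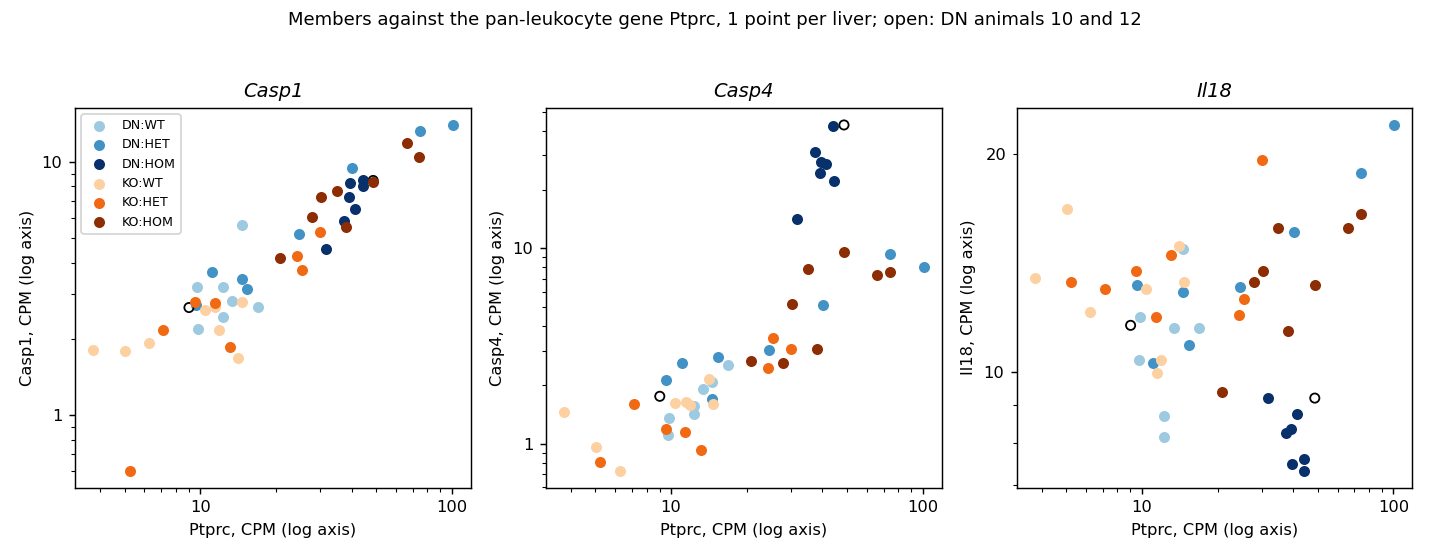
The CPM of Casp1, Casp4 and Il18 is plotted against the CPM of Ptprc in every liver, both on log axes, coloured by group, with DN animals 10 and 12 open. Casp1 follows Ptprc through all groups, the DN:HOM livers stand above the rest for Casp4 at 14.2 to 42.1 CPM, and for Il18 they lie at 7.32 to 9.22 CPM while their Ptprc is 31.7 to 44.3 CPM.

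Members were also compared from liver to liver within groups, after each group's mean was subtracted from log2 CPM. These correlations over 46 livers are a description, and the livers share differences in cell composition and depth. DN:HET animals 4 and 22, the 2 highest of their group for all 9 members, enter every correlation, and their weight was not tested. All 36 pairs of members correlated positively, from 0.46 for Casp4 with Il18 to 0.85 for Pycard with Mlkl. Gsdmd and Il18 formed the closest pair for each other (0.79). Correlation with Ptprc was 0.84 for Casp1, 0.83 for Nlrp3 and Il1b, 0.81 for Pycard, 0.80 for Casp4, 0.73 for Ripk3 and 0.70 for Mlkl, and was lower for Gsdmd (0.56) and Il18 (0.48). The genes most like each member, by the same measure, were Hk3, Slamf7 and Mndal for Nlrp3 (0.89 to 0.91), Lrrc25, Cd52 and Cd44 for Pycard (0.87 to 0.89), Cd180, Clec12a and Csf1r for Casp1 (0.88 to 0.91) and Icam1, Plekho2 and Slfn2 for Casp4 (0.87 to 0.88). For Gsdmd they were Psmb8, Psme2 and Trafd1 (0.84 to 0.86), for Il18 Trafd1, Psme1 and Iigp1 (0.75 to 0.80), for Il1b Calhm6, Ccdc88b and Arrdc1 (0.84 to 0.85), for Ripk3 H2-Ab1, Klra2 and Il2rb (0.81 each), and for Mlkl Ccl2, Plac8 and Bcl2a1d (0.82 to 0.86). Psmb8 and Psme2 encode parts of the immunoproteasome and its activator, Csf1r the macrophage growth factor receptor, and Icam1 an adhesion molecule for leukocytes.

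A list of 45 further genes of these pathways was counted, of which 42 passed the filter (Gsdma, Gsdmc and Il1r2 did not). In DN:HOM 21 were higher and 8 lower, with a median log2 fold change of 0.54, and in KO:HOM 20 were higher and 2 lower, with a median of 0.60. These 29 and 22 of 42 genes stand beside the 59.1% and 19.4% of all genes that passed in the same comparisons. With all 48 livers 17 of the list passed in DN:HOM, and of the genes named here Nlrc4 (0.95, adjusted p = 0.0658), Naip1 (-1.65, adjusted p = 0.0592), Il18r1 (0.81, adjusted p = 0.224) and Il18rap (1.12, adjusted p = 0.0714) were among those that did not. With library size alone 32 were higher and 4 lower there, and the small falls of Ripk1 (-0.24), Fadd (-0.32) and Cflar (-0.41) became 0.19, 0.11 and 0.02. Between the models 12 of the 42 passed, where 34.7% of all genes did, and 3 over all 48 livers, which were Nlrp1b, Gbp2 and Gbp5. In DN:HET 10 were higher and in KO:HET none passed (6 with an unadjusted p under 0.05, and none with DESeq2). Without DN:HET animals 4 and 22 none passed in DN:HET.

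Among the other sensors 6 of 11 were higher and 3 lower in DN:HOM, and 5 were higher and 2 lower in KO:HOM. Nlrp1b, a sensor of bacterial proteases, had a log2 fold change of 1.30 (adjusted p = 0.0157) in the knock-in and of 2.94 (adjusted p = 1.6e-05) in the knockout, a difference that passed (adjusted p = 0.0475). With all 48 livers its knock-in value was 0.87 (adjusted p = 0.107) and the difference still passed (adjusted p = 0.0357). Nlrc4, the partner of the NAIP proteins, rose by 1.42 and 2.06 and the DNA sensor Aim2 by 1.30 and 1.84 on the log2 scale. Naip1 fell (-2.36 and -3.87) from low levels, with medians of 0.348 CPM in DN:WT and 0.38 CPM in KO:WT livers, and reads of the near-identical Naip genes cannot be assigned with certainty. Of the 7 regulators of NLRP3, 2 were higher in DN:HOM and 4 in KO:HOM. The channel gene Panx1 rose by 3.45 (standard error 0.42, adjusted p = 2.7e-09) and 2.33 (standard error 0.41, adjusted p = 5.9e-05) on the log2 scale and the ATP receptor gene P2rx7 by 1.43 and 1.13. The guanylate-binding proteins, interferon-induced proteins that open bacterial vacuoles, differed between the models. Gbp2 had medians of 5.38 and 10.2 CPM in DN:WT and DN:HOM (log2 difference 0.63, adjusted p = 0.349) and 5.90 and 77.5 CPM in KO:WT and KO:HOM livers (3.42, adjusted p = 1.7e-05). Gbp5 had 2.29 and 2.67 CPM (-0.02, adjusted p = 0.977) and 1.71 and 24.5 CPM (3.56, adjusted p = 3.0e-05). Knock-in minus knockout, the effects differed by -2.79 for Gbp2 (adjusted p = 0.00399) and -3.58 for Gbp5 (adjusted p = 8.6e-04).

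Among the other caspase and membrane rupture genes Gsdme rose by 0.79 in DN:HOM (adjusted p = 0.00312) and Ninj1, whose product breaks the membrane at the end of lysis, had a log2 fold change of -0.18 (adjusted p = 0.0433), while none passed in KO:HOM. The direction of Ninj1 depends on the scaling, since with library size alone it was higher in DN:HOM (0.26, adjusted p = 0.00785), and over all 48 livers neither Gsdme (0.52, adjusted p = 0.0605) nor Ninj1 (-0.15, adjusted p = 0.0852) passed. The cytokine and receptor genes had 5 of 8 tested higher and 1 lower in DN:HOM and 5 higher in KO:HOM. The alarmin gene Il33 rose by 2.23 and 1.14, and the interleukin-18 receptor genes Il18r1 and Il18rap by 1.54 and 1.49 in the knock-in and by 2.44 and 3.47 in the knockout, with medians of 1.39 CPM or less in every homozygous or wild-type group. Of the 13 other necroptosis genes 7 were higher and 3 lower in DN:HOM and 6 were higher in KO:HOM. Tnf, the main inducer of necroptosis, had medians of 0.214 and 3.35 CPM in DN:WT and DN:HOM (log2 fold change 2.78, adjusted p = 0.00101) and of 0.213 and 2.94 CPM in KO:WT and KO:HOM livers (3.33, adjusted p = 6.3e-04). Zbp1, the nucleic acid sensor that engages RIPK3, rose by 1.13 (0.85 over all 48 livers, adjusted p = 0.118) and 2.36, and Tnfaip3, which restrains the pathway, by 1.99 and 1.56. Tlr4 rose by 1.38 in the knock-in (adjusted p = 4.4e-04), with a log2 difference of 0.79 in the knockout (adjusted p = 0.0678).

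Each cytokine was set against its natural inhibitor in the same liver. Il1rn encodes the interleukin-1 receptor antagonist. It had 1.70, 2.59 and 4.07 CPM in DN:WT and 19.3, 29.7 and 48.8 CPM in DN:HOM livers (log2 fold change 3.68, standard error 0.40, adjusted p = 1.6e-10), and 2.13, 4.38 and 8.47 against 3.95, 12.2 and 30.1 CPM in the knockout (1.65, standard error 0.35, adjusted p = 5.6e-04). The rise was larger in the knock-in by 2.03 (adjusted p = 0.00185) over the 46 livers. Over all 48, with animals 10 and 12 at 38.5 and 4.76 CPM, it was 2.02 in the knock-in (adjusted p = 0.00146) and the difference between the models was 0.37 (adjusted p = 0.783). The log2 ratio of Il1b to Il1rn was -0.73 ± 0.68 (SD, n = 7) in DN:WT and -2.48 ± 0.36 (SD, n = 7) in DN:HOM livers. It fell by 1.75 (two-sided exact permutation test, p = 0.00058, adjusted p = 0.0023 over 4 ratio tests), the smallest p this design allows, and no DN:HOM liver overlapped with DN:WT. Over all 48 livers the difference was -1.49 (exact permutation test, adjusted p = 0.0031). In the knockout the ratio was -1.71 ± 0.61 (SD, n = 8) in KO:WT and -1.84 ± 0.66 (SD, n = 8) in KO:HOM livers, a difference of -0.13 (exact permutation test, adjusted p = 0.742). Il18bp encodes the soluble protein that binds interleukin-18. Its log2 difference was -0.46 in the knock-in (adjusted p = 0.221) and it rose by 0.84 in the knockout (adjusted p = 0.0412). The log2 ratio of Il18 to Il18bp was -0.03 ± 0.32 (SD, n = 7) in DN:WT and 0.02 ± 0.21 (SD, n = 7) in DN:HOM livers (difference 0.05, exact permutation test, adjusted p = 0.742). In the knockout it was 0.50 ± 0.62 (SD, n = 8) and -0.23 ± 0.48 (SD, n = 8), and fell by 0.72 (exact permutation test, p = 0.023, adjusted p = 0.046), which did not pass with unstranded counts (adjusted p = 0.084, range 0.046 to 0.084 over the alternatives). Whether the ratios responded differently in the 2 models was not tested.

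**Figure D5:**
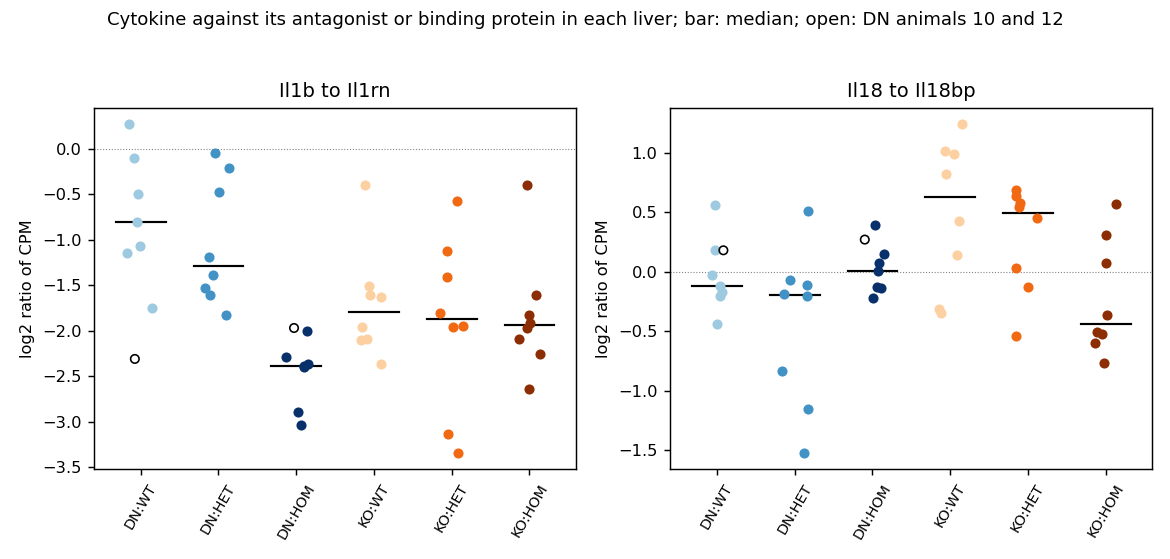
The log2 ratio of Il1b to Il1rn is plotted on the left and of Il18 to Il18bp on the right for every liver, with bars for the median of the 46 livers and open circles for DN animals 10 and 12. The DN:HOM livers lie between -3.04 and -2 for Il1b to Il1rn, below all filled DN:WT points, which lie between -1.75 and 0.27.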

How the data were processed

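Whole-liver RNA of 48 mice was sequenced as stranded mRNA libraries. Per the labels and the study's methods, the authors aligned the reads with STAR 2.5.0a to GRCm39, and the deposited values are raw read counts per gene, 1 file per liver. The column of the strand that held most reads was used. Between 24.02 and 34.99% of the reads named no gene and were left out of library sizes. The members, pathway lists and marker lists were chosen with earlier results of these data known. The DN livers used are those matched, by gene ratios, to the study's source data for a panel of bile acid genes. Counts of 46 livers were fitted with edgeR 4.0.16 (R 4.3.3; filterByExpr, TMM scaling, 1 mean per group, quasi-likelihood test), with Benjamini-Hochberg adjustment over 15711 genes. Printed CPM are scaled by TMM factors. Standard errors were taken as the log2 fold change over the square root of F. Ratios of log2 CPM used a prior count of 2 and exact permutation tests. All members were named, and in the pathway list the rule took, per role, up to 4 genes of largest change among those called in either homozygous comparison, besides Il1rn and Il18bp. Alternatives were all 48 livers, DESeq2 1.42.0, other scalings and filters, unstranded counts, each study alone and the removal of 2 shallow livers. Leaving out each liver, leaving out DN:HET animals 4 and 22 and the ratio to Ptprc were chosen after seeing the data. Animals, not cultures, are the replicates. The procedure was tested on simulated data.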

Additional observations from a re-analysis of the deposited data

Results flagged for a closer look

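Casp1 in DN:WT animal 13 stood at 5.63 CPM, with the next liver of its group at 3.21 CPM. Il1b in DN:HOM animal 33 was the low exception of its group, at 3.85 CPM against 5.42 CPM in the next liver. In KO:WT animal 5 was the highest liver for both Il1b (2.69 CPM, next 1.58) and Ripk3 (1.82 CPM, next 1.01). In KO:HET, Il1b was 5.58 CPM in animal 6 (next 2.68), and Il18 was 19.6 CPM in animal 4 (next 14.5). Each of these livers lay farther from its neighbour than Dixon's 95% critical value allows. They are 6 of 54 groups of livers and members examined, and chance sets apart about 1 in 20 groups.

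The homozygous effects of the 2 models differed by a test of the difference for Casp4 (2.01 on the log2 scale, larger in the knock-in), Il18 (-0.49) and Ripk3 (-1.51, smaller in the knock-in). These are 3 of 9 members, where 34.7% of all genes passed the same test. Over all 48 livers the Casp4 difference was -0.21 (edgeR, adjusted p = 0.902). The Il18 call was lost in 18 of 30 fits that left out 1 liver and in 5 of 8 alternatives, and the Ripk3 call with library size alone (adjusted p = 0.0612). Allele and study cannot be told apart in these differences.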

How the results depend on the processing

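For homozygous against wild-type livers, 154 member values over the 9 alternatives kept their direction and side of the threshold, 5 passed it anew, 2 no longer passed and 1 turned. Over all 48 livers the log2 value of Ripk3 in DN:HOM was -0.06, of Casp4 in DN:HET -0.68, of Casp1 in DN:HOM against DN:HET -0.09 and of Gsdmd between wild-type groups 0.04, each with its sign turned. So were the differences between the models there for Casp4 (-0.21), Il1b (-0.42) and Mlkl (-0.25). Library size alone turned Gsdmd in KO:HET (0.01), Il18 in KO:HOM against KO:HET (0.09), Pycard between the models (0.08) and Gsdmd between wild-type groups (0.01). Unstranded counts turned Pycard (0.14) and Mlkl (-0.02) between the models and Pycard between wild-type groups (-0.14), and lost the Il18 to Il18bp call in the knockout (-0.65). Without the shallow livers Il18 in KO:HOM against KO:HET was 0.01 and Mlkl between the models -0.02. Without DN:HET animals 4 and 22, Nlrp3 and Ripk3 in DN:HOM against DN:HET were 0.82 and 0.03. None of these turned values passed the threshold. The causes were not tested.

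The number of members called was 0 in DN:HET over all 48 livers and without animals 4 and 22, 5 (library size alone) and 6 (without these animals) in DN:HOM against DN:HET, 3 over 48 livers in KO:HOM against KO:HET, 1 between the models and 2 between wild-type groups. Leaving out 1 liver at a time gave 0 to 5 members in DN:HET (21 to 629 of all genes) and 2 to 5 in DN:HOM against DN:HET (8062 to 8615). In KO:HOM against KO:HET it gave 3 to 6 members (1173 to 2084 of all genes). Between the models it gave 2 to 3 (5121 to 5655), and between wild-type groups 0 to 1 (1412 to 2033). It turned signs within -0.09 to 0.18 for Ripk3 in DN:HOM, -0.08 to 0.04 for Gsdmd in KO:HET, -0.53 to 0.14 for Nlrp3 and -0.09 to 0.27 for Casp1 in DN:HOM against DN:HET, -0.06 to 0.07 for Il18 in KO:HOM against KO:HET, -0.08 to 0.13 for Mlkl between the models and -0.11 to 0.03 for Gsdmd between wild-type groups.

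Over all genes, 2016 passed in KO:HOM with 48 livers against 3048. In DN:HET 39 (48 livers), 617 (DESeq2), 239 (each study alone) and 2 (without animals 4 and 22) passed against 361, in KO:HET 10 (DESeq2) and 8 (no filter) against 3, in KO:HOM against KO:HET 737 against 1663, and between the models 1636 against 5456. Of the pathway list 17 passed in DN:HOM over 48 livers against 29, and in DN:HET 2 (48 livers), 3 (each study alone) and 0 (without animals 4 and 22) against 10, and between the models 3 (48 livers) against 12. No paired analysis was possible because animal numbers only name livers and pair none across groups. Low reads limit Nlrp3, Pycard, Ripk3 and Il1b most.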
